A study of Mus musculus with 12 samples.

Results

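The collagen genes were followed in endothelial cells (ECs) sorted from mouse lung before and during metastatic growth. The family was taken as 36 named genes, each read from the probe set that carries its symbol alone and has the highest mean over the 12 arrays, and all 36 were found among the 18193 genes that could be read in this way. All mice were of the NSG strain, which lacks mature lymphocytes and natural killer cells. One group was healthy, and the other 3 groups had received MDA-MB-231-LM2 cells, a lung-metastatic derivative of a human breast cancer line that carries GFP, through the tail vein at 6 to 8 weeks of age and were taken at week 1, 2 or 3. The healthy mice were matched for age, and each group held 3 biological replicates, 1 array each. Lungs were digested with collagenase, and the sort kept cells with CD31 and set aside those positive for GFP, for the leukocyte proteins CD45 and CD11b, for EpCAM or for CD140a or CD140b. Whole lungs were sorted, so ECs near metastases and ECs away from them were pooled.

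Collagens are secreted proteins in which 3 chains wind into a triple helix, and the genes encode single chains. Type IV chains assemble into the sheet-like network of basement membranes, which ECs and epithelium both lay down, and types XV and XVIII are heparan or chondroitin sulfate-bearing collagens attached to it. Types I, III and V form the fibrils of the interstitium and type VI forms beaded filaments beside them. These are known mainly as products of fibroblasts. Members were grouped by these roles: 8 basement membrane chains, 9 chains of fibroblasts and 19 others.

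Values are log2 signals, so a difference of 1 is a doubling of the signal, and levels of different genes are not set against each other because probe sets differ in brightness. Array signals ran from 5.27 to 13.99 with a median of 8.13, and 22 of the 36 genes lay above that median in at least 3 arrays. The other 14 (Col2a1, Col4a6, Col5a3, Col7a1, Col8a2, Col9a1, Col9a2, Col9a3, Col10a1, Col11a1, Col11a2, Col19a1, Col25a1 and Col27a1) passed it in fewer arrays, where small changes are poorly measured. The label of the cells was checked against 18 endothelial markers, all measured. Pecam1, which encodes CD31, lay between 13.40 and 13.53 in the 12 arrays, and the median of the 18 markers differed from its healthy mean by -0.03 to 0.10 in every array. Transcripts of cells that the sort removes were also read: Pdgfra, which encodes CD140a, lay between 11.82 and 11.99 in healthy arrays and between 9.12 and 9.95 at week 3 (log2 fold change -2.25, adjusted p = 0.00462). Group means ran from 12.81 to 13.53 for Sftpc of alveolar type 2 cells and from 11.56 to 12.69 for Lyz2, listed with leukocytes. Transcripts of other cell types were thus bright in these sorts. In sorted bulk RNA of this kind, fewer cells of a type and less RNA per cell cannot be told apart.

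The upstream sequences of 5 genes from both classes are given here: both basement membrane genes that rose at week 3 and 3 fibroblast chains that were low at weeks 1 and 2. They are the bases just before an annotated start in RefSeq (GRCm38.p6), 5′ to 3′ along the gene, at chr4:47207982-47208011 (plus strand) for Col15a1, chr10:77166531-77166680 (minus strand) for the outer of both annotated starts of Col18a1, chr6:4505468-4505617 (plus strand) for Col1a2, chr1:45311388-45311537 (plus strand) for Col3a1 and chr10:76726045-76726194 (minus strand) for Col6a1. Capitals mark GGGCGG (the core of the GC box), CCAAT or TATAAA read on either strand, and these motifs share no bases. Only 30 bases are given for Col15a1, since its listed start lies within the span annotated for the gene.
Col15a1: ggagcgacttcaaccgcgtagctttgggac
Col18a1: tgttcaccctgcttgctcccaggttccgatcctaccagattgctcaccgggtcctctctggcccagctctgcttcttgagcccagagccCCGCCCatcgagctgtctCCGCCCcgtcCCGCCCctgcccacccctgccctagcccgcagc
Col1a2: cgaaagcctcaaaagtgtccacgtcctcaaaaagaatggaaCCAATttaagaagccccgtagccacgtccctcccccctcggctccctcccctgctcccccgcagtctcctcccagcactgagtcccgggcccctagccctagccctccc
Col3a1: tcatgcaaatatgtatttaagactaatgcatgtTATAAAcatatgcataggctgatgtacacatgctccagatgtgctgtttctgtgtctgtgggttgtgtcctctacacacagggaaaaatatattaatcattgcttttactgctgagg
Col6a1: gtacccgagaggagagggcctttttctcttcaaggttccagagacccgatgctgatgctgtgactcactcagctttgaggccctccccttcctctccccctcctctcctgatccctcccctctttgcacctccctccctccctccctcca
Col18a1 held 3 GC-box cores on the opposite strand, Col1a2 a CCAAT, Col3a1 a TATAAA and Col6a1 none of them. RefSeq windows were at hand for 29 of the 36 genes and not for 7. Over the 250 bases before each start, GGGCGG was found in 19 of the 32 windows of collagen genes (59.4%) and in 32.7% of all 32851 windows. The collagen windows were also richer in G and C, with a median of 60.0% against 52.4%, and the part of this in the GGGCGG share was not tested. CCAAT was found in 37.5% against 33.8% and TATAAA in 15.6% against 12.4%. In the same annotation Col4a1 and Col4a2, Col4a3 and Col4a4, and Col4a5 and Col4a6 are neighbouring pairs. So are Col3a1 and Col5a2, Col6a1 and Col6a2, and Col9a1 and Col19a1.

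**Figure D1:**
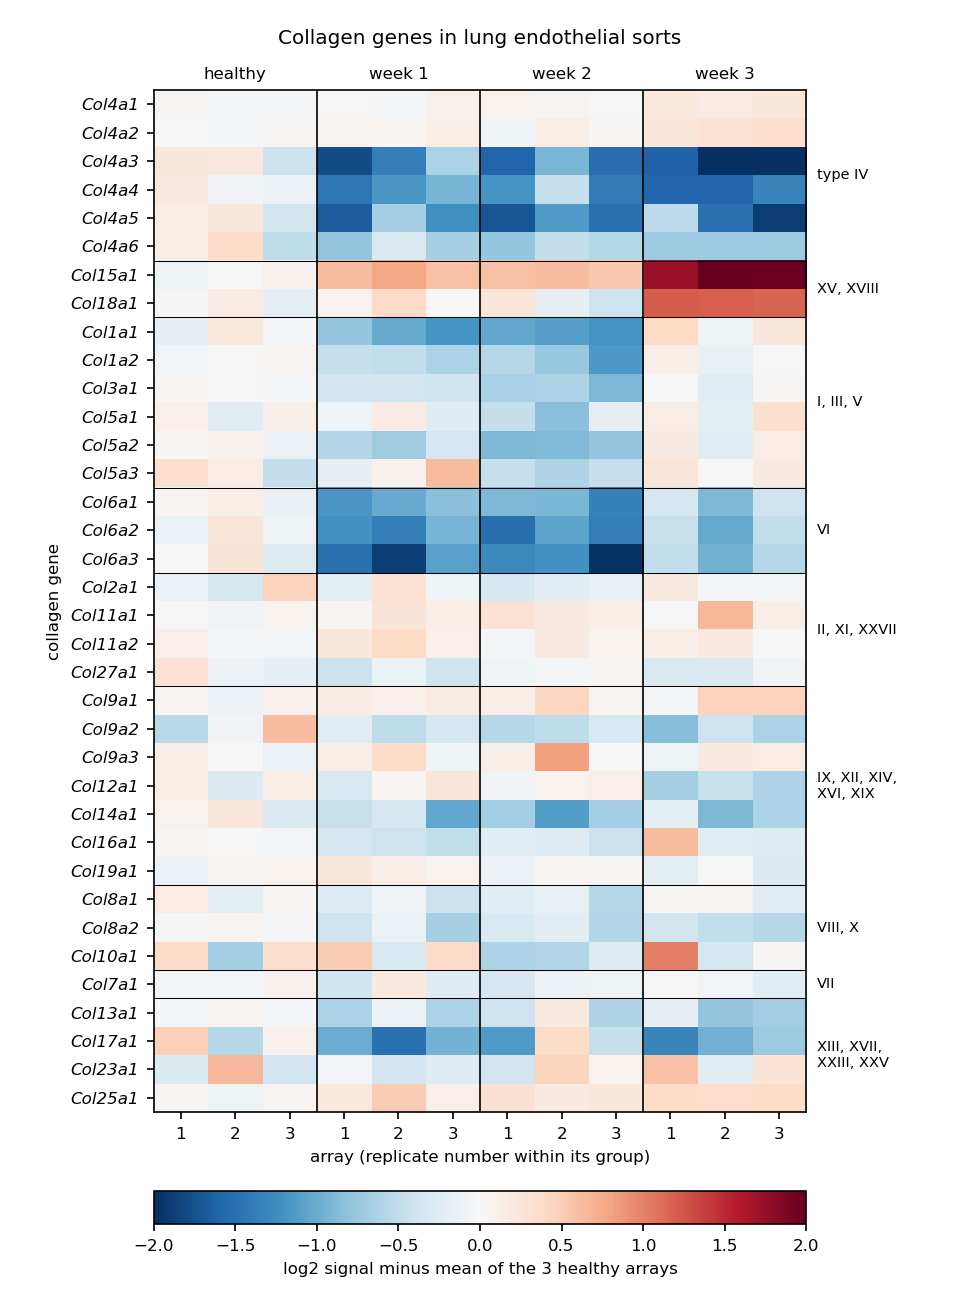
Log2 signal of the 36 collagen genes (rows, by class) in the 12 arrays (columns, by group and replicate) minus the mean of the 3 healthy arrays of the same gene; red is higher and blue lower, and colours saturate at a difference of 2. Col15a1 and Col18a1 are red at week 3, Col4a3 and Col4a4 blue in all 3 weeks, and the I, III, V and VI chains are mostly blue at weeks 1 and 2.

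At week 3 against healthy, the basement membrane collagens split into opposite directions. Both of the sulfate-bearing collagens rose, Col15a1 by 3.79-fold and Col18a1 by 2.29-fold, while Col4a3 and Col4a4, which encode chains of the α3α4α5 network known from alveolar and glomerular basement membranes, fell 4.33-fold and 2.83-fold. Col4a1 and Col4a2, the chains of the common vascular network, moved little. With limma and Benjamini–Hochberg adjustment over all 45037 probe sets, 4 of the 36 genes passed an adjusted p of 0.05, 2 in each direction, where 5.01% of all genes passed (2.38% upward and 2.63% downward). The 4 genes were all among the 8 basement membrane chains.

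Col15a1, whose C-terminal fragment is known as restin, had log2 signals of 9.55, 9.67 and 9.75 in healthy arrays, 10.27, 10.42 and 10.24 at week 1, 10.23, 10.27 and 10.20 at week 2 and 11.37, 11.73 and 11.63 at week 3. Every array of metastatic lungs was above every healthy array, and the week 3 arrays were above all others. The log2 fold change at week 3 was 1.92 (SE 0.13, adjusted p = 0.00135), and the values of 0.65 at week 1 (adjusted p = 0.103) and 0.58 at week 2 (adjusted p = 0.11) did not pass. Week 3 was also above week 2, by 1.34 (SE 0.12, adjusted p = 0.013).

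Col18a1, whose C-terminal fragment is endostatin, had signals of 9.76, 9.91 and 9.57 in healthy arrays, 9.82, 10.15 and 9.75 at week 1, 9.996, 9.56 and 9.33 at week 2 and 10.96, 10.95 and 10.91 at week 3. Healthy arrays overlapped with those of weeks 1 and 2, and only week 3 stood apart. The rise was 1.19 against healthy (SE 0.12, adjusted p = 0.00468) and 1.31 against week 2 (SE 0.17, adjusted p = 0.0233). Its second probe set gave 1.45 (adjusted p = 0.00263) and 1.41 (adjusted p = 0.0121). Col15a1 has 1 probe set with its symbol alone.

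Col4a3 had signals of 10.30, 10.29 and 9.65 in healthy arrays, 8.29, 8.71 and 9.44 at week 1, 8.49, 9.17 and 8.56 at week 2 and 8.46, 7.98 and 7.46 at week 3. It was below healthy in all 9 arrays of metastatic lungs, with the widest scatter at week 1. The log2 fold change was -2.11 at week 3 (SE 0.28, adjusted p = 0.0111), against -1.27 at week 1 (adjusted p = 0.208) and -1.34 at week 2 (adjusted p = 0.119). Without healthy replicate 2 the week 3 adjusted p was 0.0537, and a second probe set fell by 1.82 (adjusted p = 0.00265).

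Col4a4 had signals of 9.21, 8.95 and 8.89 in healthy arrays, 7.58, 7.85 and 8.09 at week 1, 7.82, 8.55 and 7.61 at week 2 and 7.43, 7.43 and 7.69 at week 3. No array of metastatic lungs reached the healthy range. The log2 fold change was -1.50 at week 3 (SE 0.14, adjusted p = 0.0031) and -1.18 at week 1 (adjusted p = 0.0604). Its 2 dimmer probe sets gave -1.19 (adjusted p = 0.0799) and -0.35 (adjusted p = 0.557) at week 3, without passing.

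Col4a5, the partner chain of Col4a3 and Col4a4, lay between 9.27 and 9.86 in healthy arrays and between 7.74 and 9.11 at week 3. The groups did not overlap, but the week 3 arrays spread over more than 1 log2 unit, and the log2 fold changes of -1.19, -1.45 and -1.30 at weeks 1, 2 and 3 did not pass (adjusted p = 0.169, 0.0677 and 0.0875). Col4a6, which pairs with Col4a5 in a network known from smooth muscle and some epithelia, was dim, between 7.57 and 8.48 in healthy arrays and between 7.35 and 7.37 at week 3 (-0.73, adjusted p = 0.121). A second probe set of Col4a6 fell by 1.08 (adjusted p = 0.0269).

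Col4a1 lay between 13.49 and 13.57 in healthy arrays and between 13.68 and 13.75 at week 3, and Col4a2 between 13.14 and 13.18 and between 13.41 and 13.49. For both genes each week 3 array was above each healthy array, with log2 fold changes of 0.20 (95% interval -0.02 to 0.43, adjusted p = 0.292) and 0.29 (95% interval 0.06 to 0.52, adjusted p = 0.148). Such separation upward was common at week 3, with 3133 of all 18193 genes. A second probe set of Col4a1 gave 0.36 at week 3 against healthy and did not pass (adjusted p = 0.0896). At weeks 1 and 2 the differences of both genes were between 0.02 and 0.07 in the probe sets used. Signals at this height are near the top of the array's range, where differences can be compressed.

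**Figure D2:**
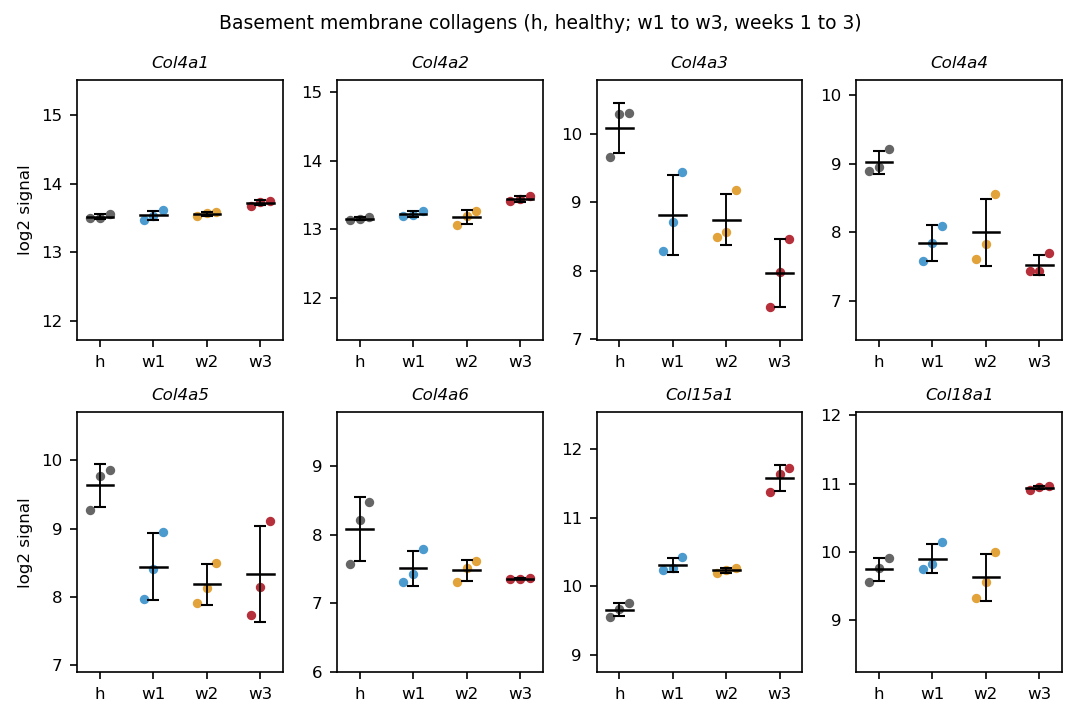
Log2 signal of the 8 basement membrane chains by group; dots are arrays, the horizontal line is the mean and the bars are the SD of 3 arrays, and each panel spans the same number of log2 units. Col15a1 and Col18a1 are high at week 3, Col4a3, Col4a4, Col4a5 and Col4a6 sit below healthy in all 3 weeks by their means, and Col4a1 and Col4a2 stay close to their healthy level.

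Alveolar markers were lower in the same groups as Col4a3, Col4a4, Col4a5 and Col4a6. At week 3, 2.63% of all genes fell and 2.38% rose. Of 7 alveolar type 1 markers, 4 fell at week 3, with Ager at -1.81 (adjusted p = 0.00387) and Akap5 at -1.64 (adjusted p = 0.0225). Among the 7 markers, 1 lay above healthy without overlap at week 2, and 1 at week 3. By array, the median of these markers against healthy was -1.03, -1.01 and -0.52 at week 1, -0.87, -0.03 and -1.05 at week 2 and -0.62, -1.01 and -1.16 at week 3. Week 2 replicate 2, the array near 0, also had the highest Col4a3 (9.17), Col4a4 (8.55) and Col17a1 (9.48) of its group. At week 3 Col4a3 was highest in replicate 1, where the marker median was highest too (-0.62). Col4a4 went the other way there, being highest in replicate 3, where the marker median was lowest (-1.16). The means of the 7 markers at week 3 ran from 6.93 for Rtkn2 to 12.85 for Clic5, and Ager lay between 9.77 and 10.31 at week 3 and between 11.65 and 12.02 in healthy arrays. Of 6 alveolar type 2 markers, 3 fell at week 3. Epcam itself lay between 7.43 and 7.49 in healthy arrays and between 6.95 and 7.19 at week 3 (-0.37, adjusted p = 0.114). The part of these cells in the fall of Col4a3 and Col4a4 was not tested. Of 9 genes known from systemic venous ECs, Vwa1 (2.38, adjusted p = 0.00103) and Ackr1 (1.62, adjusted p = 0.0166) rose with Col15a1, while Meox2 fell by 0.81 (adjusted p = 0.0292). Their part in the Col15a1 result was not tested either.

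The fibrillar and type VI chains followed another course. All 9 chains lay below healthy by their means at week 2, and 7 of them at week 1 without overlap with healthy, the exceptions being Col5a1 (-0.05) and Col5a3 (0.19). Of all 18193 genes, 1261 lay below healthy without overlap at week 1. At week 3 the means of the type I, III and V chains were within 0.18 of healthy and those of the type VI chains lay between week 2 and healthy. At week 2 against healthy, 3 of the 9 chains fell and none rose, Col1a1 and Col5a2 of the fibrils and Col6a2 of the beaded filaments. No other collagen gene passed, so 3 of 36 passed where 0.242% of all genes did (0.137% downward). None of the 3 calls held when any 1 array was left out, and 0 of the 45037 probe sets passed in these fits, except 40 without week 2 replicate 2. The log2 fold changes stayed between -1.19 and -1.01 for Col1a1, -0.92 and -0.81 for Col5a2 and -1.45 and -1.20 for Col6a2 over all alternatives. At week 1 none of the 36 passed with limma, where 0.0495% of all genes did. At an unadjusted p below 0.05, 16 of the 36 were lower and 1 higher at week 1, where 5.24% and 3.73% of all genes were. The median log2 fold change of the 9 chains was -0.54, -0.86 and -0.00 at weeks 1, 2 and 3, and that of the 8 basement membrane chains was -0.28, -0.36 and -0.26, beside 0.05, 0.03 and 0.03 for all genes. The basement membrane median lies between chains that moved in opposite directions and describes none of them. The 3 comparisons share the healthy arrays.

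Col1a1, the α1 chain of type I collagen, had signals of 11.71, 12.07 and 11.82 in healthy arrays, 11.09, 10.85 and 10.69 at week 1, 10.82, 10.77 and 10.67 at week 2 and 12.26, 11.78 and 12.09 at week 3. Weeks 1 and 2 lay wholly below healthy, and week 3 overlapped with it. The fall at week 2 was -1.11 (SE 0.12, adjusted p = 0.0389), or 2.16-fold, and week 3 differed from healthy by 0.18 (95% interval -0.20 to 0.56). Col1a2, its partner chain, lay between 12.64 and 12.76 in healthy arrays, 11.55 and 12.13 at week 2 and 12.55 and 12.84 at week 3, with log2 fold changes of -0.83 (adjusted p = 0.13) and -0.00 (95% interval -0.27 to 0.27). The dimmest of its 3 probe sets gave -1.23 at week 3 (adjusted p = 0.0113), so the probe sets disagreed on this gene.

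Col3a1, the single chain of type III collagen, had signals of 13.08, 13.05 and 13.01 in healthy arrays, 12.66, 12.66 and 12.64 at week 1, 12.40, 12.43 and 12.14 at week 2 and 13.05, 12.83 and 13.07 at week 3. The week 2 arrays were the lowest of all, at -0.72 against healthy (adjusted p = 0.0819). Col5a2, a chain of the type V collagen that helps start fibrils, lay between 11.46 and 11.68 in healthy arrays, 10.87 and 11.26 at week 1, 10.69 and 10.81 at week 2 and 11.37 and 11.77 at week 3. Its fall at week 2 was -0.86 (SE 0.11, adjusted p = 0.046). Col5a1 and Col5a3, the other type V chains, overlapped with healthy in every week, with log2 fold changes between -0.51 and 0.19.

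The median log2 fold change of the 3 type VI chains was -1.17 at week 1 and -1.32 at week 2, beside -0.46 and -0.78 for the 6 type I, III and V chains. Col6a2 had signals of 10.47, 10.83 and 10.50 in healthy arrays, 9.38, 9.22 and 9.67 at week 1, 9.09, 9.54 and 9.22 at week 2 and 10.15, 9.57 and 10.11 at week 3. Each array of metastatic lungs was below each healthy array. The fall at week 2 was -1.32 (SE 0.16, adjusted p = 0.046), or 2.49-fold, beside -1.17 at week 1 (adjusted p = 0.0604). Col6a3, which carries the longest chain of the trimer, was at -1.49 in both weeks (adjusted p = 0.0646 and 0.0807), and Col6a1 at -0.999 and -1.05 (adjusted p = 0.0604 and 0.0723). At week 3 all 3 chains still lay below healthy in every array, where 12.7% of all genes did, with log2 fold changes from -0.67 to -0.55 that did not pass (adjusted p from 0.0911 to 0.126).

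**Figure D3:**
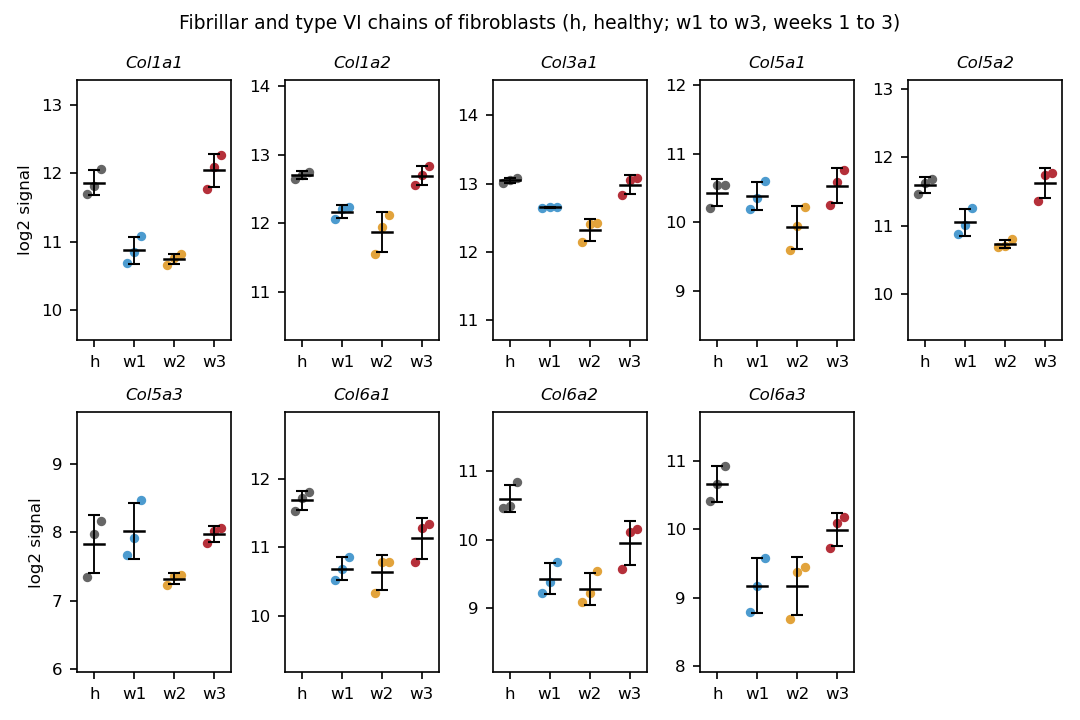
Log2 signal of the 9 fibrillar and type VI chains by group; dots are arrays, the line is the mean and the bars are the SD of 3 arrays, and each panel spans the same number of log2 units. All 9 chains are lowest on average at week 1 or 2, and at week 3 the type I, III and V chains overlap with healthy while the type VI chains do not.

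Between weeks 2 and 3 most of the collagen genes that passed moved upward. Col15a1, Col18a1, Col1a1, Col5a2 and Col5a3 rose and Col12a1, a collagen on the fibril surface, fell, so 6 of 36 passed where 2.1% of all genes did (1.35% upward and 0.748% downward). All 9 fibroblast chains had every week 3 array above every week 2 array, where 12.9% of all genes did. Their median difference was 0.66, beside -0.00 for all genes. Col1a1 rose by 1.29 (SE 0.14, adjusted p = 0.0176), or 2.45-fold, and Col5a2 by 0.89 (SE 0.13, adjusted p = 0.0308). Col1a2 (0.82, adjusted p = 0.066), Col3a1 (0.66, adjusted p = 0.0565) and the 3 type VI chains (0.50 to 0.82) did not pass, although a second probe set of Col3a1 rose by 1.37 (adjusted p = 0.0167).

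Col5a3 lay between 7.24 and 7.37 at week 2 and between 7.84 and 8.07 at week 3, a rise of 0.65 (SE 0.11, adjusted p = 0.0388) at a low signal. Its healthy arrays spanned 7.35 to 8.17 and covered both. Col12a1 lay between 9.41 and 9.81 in healthy arrays, 9.61 and 9.77 at week 2 and 9.01 and 9.22 at week 3. It fell by 0.61 against week 2 (SE 0.11, adjusted p = 0.0441), and its difference of -0.58 from healthy did not pass (adjusted p = 0.0752). Its 3 dimmer probe sets gave -0.65, -0.26 and 0.03 and did not pass. The calls between weeks 2 and 3 were lost more often when 1 array was left out, with 0 to 3 collagen genes and 0 to 290 of 45037 probe sets passing, against 3 to 6 and 674 to 1032 for week 3 against healthy. The log2 differences changed less, from 1.27 to 1.45 for Col15a1 and from 1.16 to 1.49 for Col18a1 over all alternatives. Col15a1 passed in 4 of the 6 fits with 1 array left out, missing without week 2 replicate 1 or 3. Col1a1 and Col5a2 each passed in 1 of the 6, and Col18a1, Col5a3 and Col12a1 in none.

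**Figure D4:**
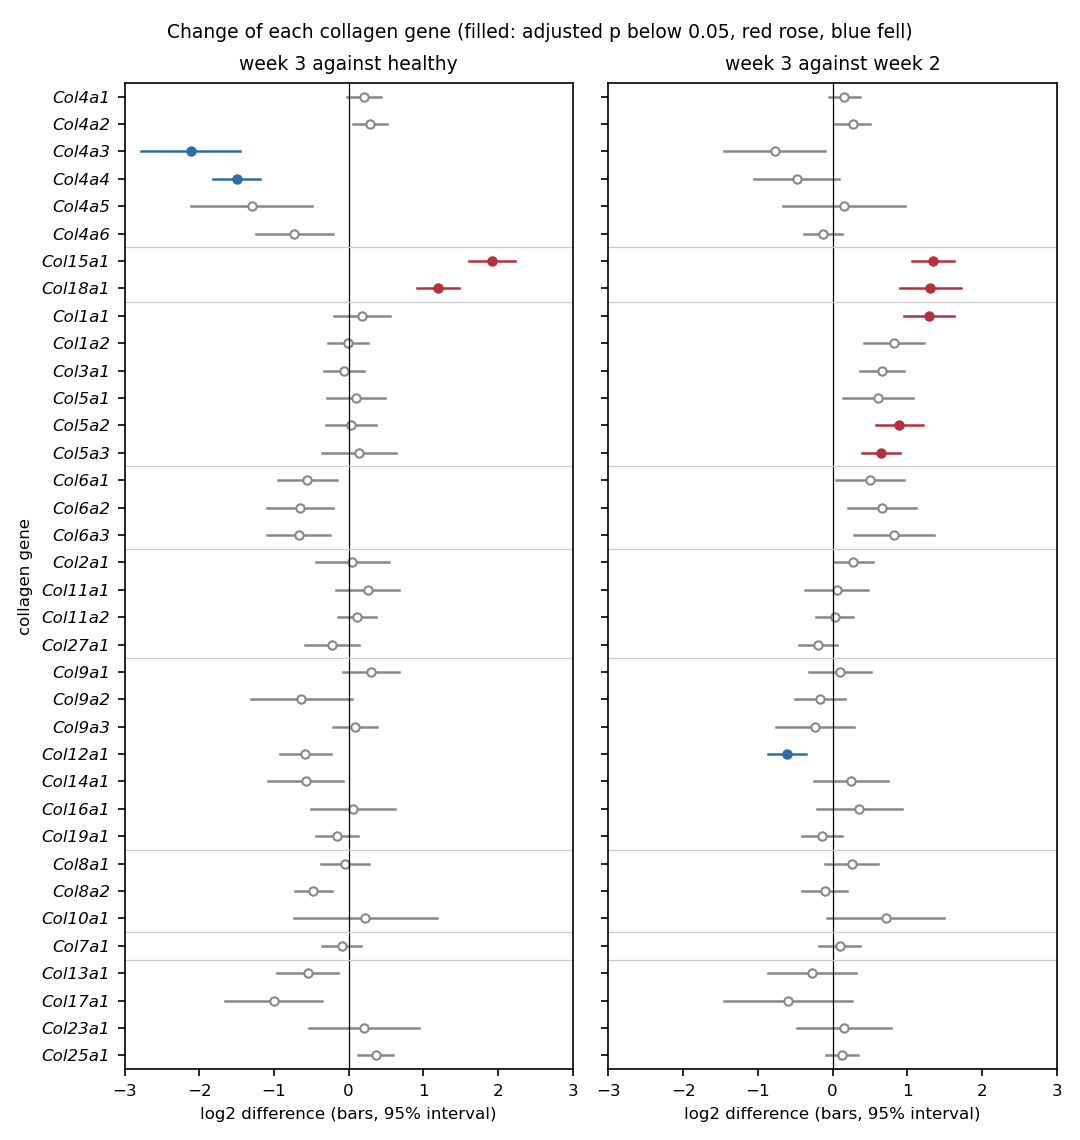
Log2 difference of each of the 36 collagen genes at week 3 against healthy (left) and against week 2 (right); dots are estimates, bars 95% intervals from limma, and filled dots passed an adjusted p of 0.05. On the left Col15a1 and Col18a1 are to the right of 0 and Col4a3 and Col4a4 to the left, and on the right all 9 fibroblast chains lie above 0.

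Fibroblast markers stayed low at week 3, when the type I, III and V chains lay near their healthy means. Of all genes, 0.0495% passed at week 1, 0.137% fell at week 2 and 2.63% fell at week 3. Between weeks 2 and 3, 1.35% of all genes rose. Of 15 fibroblast markers, none passed at week 1, 4 fell at week 2 and 11 at week 3, with Ogn at -2.06 (adjusted p = 0.00319), Pdgfra at -2.25 and Tcf21 at -1.79 (adjusted p = 0.00133) at week 3. By array, the median of the 15 markers was -0.62 to -0.44 against healthy at week 1, -1.28 to -0.79 at week 2 and -1.23 to -1.10 at week 3, while the median of the 6 type I, III and V chains was -0.44 to -0.37, -0.84 to -0.61 and -0.16 to 0.17. The course of these 6 chains and of the markers was alike at weeks 1 and 2 and parted at week 3. The median of the 3 type VI chains was -1.38 to -0.93 at week 1 and -0.94 to -0.45 at week 3, still below healthy. One marker, Mfap5, which encodes a microfibril protein, rose from between 8.21 and 8.54 at week 2 to between 9.36 and 9.83 at week 3 (1.30, adjusted p = 0.0206). Of 14 mural markers, which mark pericytes and smooth muscle, 2 fell at week 2 and 3 at week 3, and Acta2, smooth muscle actin, rose by 1.08 between weeks 2 and 3 (adjusted p = 0.0193) while staying below healthy in every array. Pdgfrb, which encodes CD140b, was at -1.67, -1.12 and -0.91 in weeks 1, 2 and 3 without passing (adjusted p = 0.0529, 0.168 and 0.0575). At week 3 the means of the 15 fibroblast markers ran from 7.33 for Scara5 to 12.01 for Inmt, and the lowest of the 14 mural markers was Trpc6 at 7.18. By array, the median of 8 markers of leukocytes and platelets was -1.14 to -0.77 against healthy at week 1, -0.67 to -0.57 at week 2 and -0.18 to 0.04 at week 3. Of these 8, Ppbp of platelets fell at week 1 (-1.48), none passed at week 2, and Cd68 of macrophages fell at week 3 (-1.18). Between weeks 2 and 3 their median difference was 0.57 with none past the threshold, and Ptprc, which encodes CD45, was at 0.80 (adjusted p = 0.264). The part of fibroblasts, mural cells and blood cells in the course of the collagen chains was not tested.

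**Figure D5:**
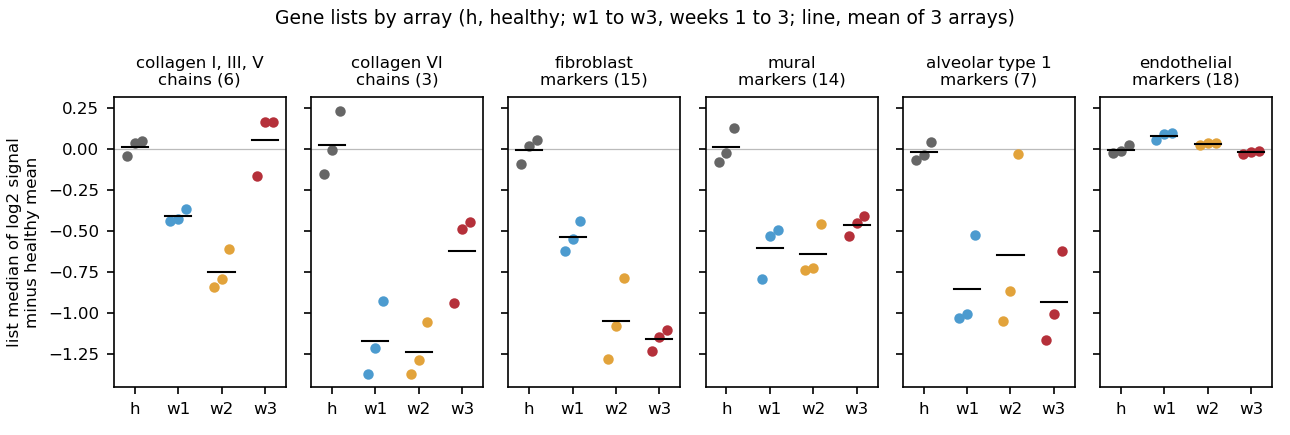
Median over each gene list of the log2 signal minus the gene's healthy mean, by array (dots; the line is the mean of 3 arrays). At week 3 the type I, III and V chains are at -0.16 to 0.17 and the fibroblast markers at -1.23 to -1.10, while the endothelial markers stay within 0.10 of 0 in all arrays.

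Of the remaining 19 genes, Col12a1 alone passed in any comparison, between weeks 2 and 3, where 2.1% of all genes passed. None of the 19 passed against healthy, where 0.0495%, 0.242% and 5.01% of all genes did at weeks 1, 2 and 3. The log2 fold changes of the 19 ran from -1.15 to 0.27 at week 1, from -0.83 to 0.32 at week 2 and from -1.002 to 0.36 at week 3. At both ends of the week 3 range were transmembrane collagens: Col17a1, the collagen of epithelial hemidesmosomes, lay between 8.55 and 9.60 in healthy arrays and between 7.80 and 8.39 at week 3 (-1.002, adjusted p = 0.098), and Col25a1 lay between 7.61 and 7.76 and between 8.06 and 8.09 (0.36, adjusted p = 0.101). Col14a1, which binds fibrils, was at -0.61, -0.83 and -0.58 in the 3 weeks and did not pass. Cartilage chains of types II, IX and XI, with type X of hypertrophic cartilage, lay near or below the median of all signals in most arrays. Of 9 chondrocyte markers Cytl1 alone passed, and its log2 fold change at week 3 was -1.08 (adjusted p = 0.00533). The mean of Cytl1 over the 12 arrays was 11.38. Those of the other markers lay below the median signal of 8.13, from 5.96 for Matn1 to 7.74 for Acan. Of 8 further collagen genes outside the list, 6 were measured and none passed in any comparison.

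The machinery that makes and binds collagen was read from 5 lists. Lists of enzymes that hydroxylate and glycosylate the chains, of chaperones and export factors, of propeptide processing, of crosslinking and of receptors held 52 genes, of which 47 were measured. Of these, 2 fell at week 3 against healthy, a share near the 5.01% of all genes that passed there, and none passed in the other 3 comparisons. Pcolce, which enhances removal of the C-propeptide of fibrillar procollagens, had signals of 10.01, 10.22 and 9.73 in healthy arrays, 8.83 to 8.98 at week 1, 8.85 to 9.26 at week 2 and 9.33, 9.20 and 9.18 at week 3 (-0.75, SE 0.15, adjusted p = 0.0374). Its relative Pcolce2 had 12.45, 12.49 and 12.46 in healthy arrays, 11.45 to 11.68 at week 1, 11.63 to 11.90 at week 2 and 11.42, 11.41 and 11.35 at week 3 (-1.08, SE 0.10, adjusted p = 0.00305). Both were below healthy in every array of metastatic lungs. At week 3 the median difference from healthy was 0.18 for the 15 modifying enzymes, 0.19 for the 9 chaperone and export genes, 0.02 for the 6 crosslinking genes, -0.16 for the 6 propeptide processing genes and -0.15 for the 11 receptors, beside 0.03 for all genes.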

How the data were processed

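Gene expression was measured on Affymetrix mouse genome arrays. The deposited values are log2 signals, 1 per probe set and array, which the authors made from raw scans by robust multiarray average in Chipster (background correction, quantile normalization and summary over probes). They were used as deposited. Quantile normalization forces arrays to a like distribution, so changes are relative. Of 45101 probe sets, 64 array controls were set aside. Of the 45037 others, 34945 carry 1 gene symbol, 932 several and 9160 none, and genes were read from the first kind. Of the collagen genes, 23 have more than 1 such probe set. Precision is limited by having 3 arrays in each group.

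Groups were compared in pairs with the moderated linear model of limma 3.58.1 in R 4.3.3 at its default settings, as the methods of the study describe, and adjusted p-values are Benjamini–Hochberg over all tested probe sets. The fit was tested on simulated data. The members and lists were chosen with earlier results of these data known. Genes given in full are those past the threshold and the 17 basement membrane and fibroblast chains, with other lists given by counts and by members that passed. The gene lists were written from general knowledge. Loxl2, Lamp3, Fkbp10, Adamts2, Adamts14 and Itga11 were not read from a probe set of their own. Replicate numbers did not pair the arrays: same-numbered deviations from the group means correlated by -0.10 to 0.06. Alternatives were 1 fit over all groups, a block for the replicate number, omission of each array, other normalization, a filter on low values, other probe set choices, a trended and robust variance, and array weights. Python 3.11.15, numpy 2.4.6, pandas 2.3.3 and matplotlib 3.10.9 were used otherwise.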

Additional observations from a re-analysis of the deposited data

Results flagged for a closer look

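In 6 collagen genes the change from healthy at week 3 differed from that at week 2, by limma's test of week 3 against week 2, where 2.1% of all genes passed. With all 4 groups in 1 fit, Col5a3 and Col12a1 did not pass, and the other 4 did. The change at week 3 minus that at week 2 was 1.34 for Col15a1, 1.31 for Col18a1, 1.29 for Col1a1, 0.89 for Col5a2 and 0.65 for Col5a3 on the log2 scale, and -0.61 for Col12a1. For Col15a1 the change was upward at both times and larger at week 3. For Col1a1 and Col5a2 it was downward at week 2 and near 0 at week 3.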

How the results depend on the processing

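Of the 4 collagen genes called at week 3 against healthy, Col15a1, Col18a1 and Col4a4 passed under every alternative run, and Col4a3 under all but 1. With the replicate number as a block, which does not pair the arrays, no collagen gene passed at week 2 or between weeks 2 and 3 (0 and 0, from 3 and 6), and neither did any of the 45037 probe sets. When each array was left out in turn, the number called was 0 at week 1, 0 at week 2, 3 to 6 at week 3 and 0 to 3 between weeks 2 and 3, where 0 to 21, 0 to 40, 674 to 1032 and 0 to 290 probe sets passed in all. Other settings changed the collagen calls and those over the whole array: at week 1 (0) all groups in 1 fit gave 6, the filter on low values 5, the mean of a gene's probe sets 8, trended and robust variance 7 and array weights 3, with 311, 234, 181, 335 and 113 calls over all features against 16. At week 2 (3) these gave 7, 6, 10 and 8 in the same order without array weights, with 179, 154, 134 and 195 calls in all against 71, and leaving out _x_at and _s_at probe sets gave 1, with 48 in all. At week 3 (4) the mean of probe sets gave 9 and the trended variance 7, with 1426 and 2512 in all against 1926. Between weeks 2 and 3 all groups in 1 fit also gave 6, of which 4 were shared, without Col5a3 and Col12a1. The median of the basement membrane chains became 0.018, -0.12 and 0.20 at weeks 1, 2 and 3 with the filter, which removes Col4a6. The sign of this median was thus reversed at weeks 1 and 3. With single arrays left out it ran from -0.41 to -0.19, from -0.53 to -0.22, from -0.40 to -0.17 and, between weeks 2 and 3, from 0.016 to 0.24. That of the fibroblast chains became -0.77 at week 1 with the filter, which removes Col5a3, and -0.999, -1.05 and 0.82 at week 1, week 2 and between weeks 2 and 3 with the mean of probe sets. With single arrays left out it ran from -0.65 to -0.53, from -0.95 to -0.82, from -0.08 to 0.07 and from 0.63 to 0.85. Among single genes no direction reversed past the threshold in these alternatives. Of the 33 other probe sets of the collagen genes, 6 at week 1, 8 at week 2 and 12 at week 3 had the opposite sign to the probe set used. Between weeks 2 and 3, 7 did. Array signals give no read depth, and 14 of the 36 genes passed the median signal in fewer than 3 arrays.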
